A study of Mus musculus with 8 samples.

Results

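The genes that restrain mitogen-activated protein kinase (MAPK) signalling were examined in regulatory T cells (Treg) of mouse bone marrow (BM-Treg) and spleen (SP-Treg). The group was fixed by gene symbol and holds 10 of the 38215 genes in the tables. It comprises 7 dual-specificity phosphatases (Dusp1, Dusp2, Dusp4, Dusp5, Dusp6, Dusp10 and Dusp16) and 3 membrane-proximal inhibitors (Spry1, Spry2 and Spred1). The rule uses no measured value, but the members were chosen with earlier results of these data known.

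Bulk RNA sequencing was performed on FoxP3+ Treg sorted by the GFP reporter from naive mice of the B6.FoxP3-GFP reporter strain at an age of 12 weeks, and each tissue gave 4 libraries. The labels give all mice as C57Bl/6. By the labels, BM-Treg 1, 2 and 3 came from female mice and batch 1. BM-Treg 4 and all 4 SP-Treg libraries were labelled as male and batch 3. The paper's methods name female mice as the default and do not give the sex for the RNA sequencing. In the labels, sex and batch go together in every library and cannot be told apart, so a batch term is also a sex term. Tissue can be told apart from them only through BM-Treg 4. Values for batch 3 alone, or with batch as a term, are given beside the results. Number ranges stand in the labels of the spleen libraries, and the sources used here do not say whether these name pooled mice. The p-values measure the spread between these libraries.

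MAPK phosphatases switch off ERK, p38 and JNK by removing the phosphates from both the threonine and the tyrosine of the activation loop. Many are themselves transcribed in response to the kinases they inactivate, so they close negative feedback loops downstream of the T cell receptor. Sprouty and SPRED proteins act earlier and limit the activation of RAS and RAF at the membrane. SPRED1 does so by bringing the RAS GTPase-activating protein neurofibromin to the membrane.

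Promoter sequence is shown for the 3 members that passed the test between tissues and for Dusp5, whose window carried paired motif matches. RefSeq promoter windows on GRCm38.p6 matched 9 of the 10 members, all but Dusp4. Each sequence runs 5′ to 3′ on the coding strand from 250 to 51 bases before the RefSeq start, and capitals mark motif matches. Dusp1 lies at chr17:26508523-26508722 (minus strand), Dusp5 at chr19:53528895-53529094 (plus), Dusp16 at chr6:134792679-134792878 (minus) and Spred1 at chr2:117120821-117121020 (plus).
Dusp1: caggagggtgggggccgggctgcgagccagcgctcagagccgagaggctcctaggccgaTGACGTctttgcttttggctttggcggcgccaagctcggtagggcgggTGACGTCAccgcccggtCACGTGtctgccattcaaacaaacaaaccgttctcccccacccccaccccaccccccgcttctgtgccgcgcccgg
Dusp5: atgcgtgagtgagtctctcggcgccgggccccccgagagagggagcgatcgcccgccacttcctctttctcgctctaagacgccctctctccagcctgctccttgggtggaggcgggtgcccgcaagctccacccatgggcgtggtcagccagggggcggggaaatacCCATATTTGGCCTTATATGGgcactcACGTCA
Dusp16: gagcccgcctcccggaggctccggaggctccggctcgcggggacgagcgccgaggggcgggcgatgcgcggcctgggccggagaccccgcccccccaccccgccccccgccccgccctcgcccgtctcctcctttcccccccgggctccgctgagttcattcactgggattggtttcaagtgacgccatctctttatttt
Spred1: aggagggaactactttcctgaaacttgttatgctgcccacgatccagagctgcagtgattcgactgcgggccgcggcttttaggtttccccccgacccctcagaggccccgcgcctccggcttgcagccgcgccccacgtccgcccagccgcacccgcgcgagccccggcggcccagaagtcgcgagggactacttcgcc

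The motifs searched on both strands were the cyclic AMP response element TGACGTCA, its core TGACGT, the AP-1 site TGANTCA, the E-box CACGTG, the ETS site CCGGAAG and the CArG box bound by serum response factor. The core lies within the full response element, so a full match is also counted as a core match on each strand. The Dusp1 window held the full element 143 bases before the start, a form present in 0.828% of 32851 windows. It held a further core match 191 bases before the start, and 4.16% of windows held at least 1 core match. An E-box in Dusp1 stood 126 bases before the start, a motif found in 4.34% of windows. The Dusp5 window held 2 adjacent CArG boxes, 82 and 72 bases before the start, whereas 1.16% of windows held at least 1 and 0.00913% held 2 or more. A core match lay beside them, 56 bases before the start. Dusp2 held 1 E-box. None of these letters occurred in the windows of Dusp6, Dusp10, Dusp16, Spry1, Spry2 or Spred1. These matches describe sequence only, and binding was not measured.

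Dusp1 was by far the most abundant member per unit of transcript length. Its mean over the 8 libraries was 262 fragments per kilobase scaled to library size (FPKM), which placed it at percentile 98.2 of the 13397 genes tested. The lowest Dusp1 value of any library, 104 FPKM in SP-Treg 1, was above the highest value of every other member in any library, 29.5 FPKM for Dusp10 in BM-Treg 3. Dusp2 and Dusp10 followed with means of 24.3 and 20.4 FPKM. The order of their mean FPKM differed between tissues. In BM-Treg, Dusp10 was at 26.0 ± 2.65 and Dusp2 at 24.8 ± 3.18 FPKM (SD, n = 4), so there these neighbours did not differ beyond their spread. In SP-Treg, Dusp2 was at 23.7 ± 3.19 and Dusp10 at 14.8 ± 7.76 FPKM, and Dusp2 was the higher in each library. Counts scaled to library size but not to transcript length (CPM) did not show this change of order. On that scale the mean of Dusp10 was above that of Dusp2 in BM-Treg (47.4 and 34.9) and in SP-Treg (36.0 and 33.9).

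Dusp5 (10.4 FPKM) and Dusp4 (9.11 FPKM) formed the next level, and their libraries overlapped in both tissues. Dusp16 (2.91), Spred1 (2.58), Dusp6 (2.43) and Spry1 (2.01 FPKM) were close to each other and lay between percentiles 19.6 and 26.1. Their order differed between tissues. Spred1 ranked ninth of the members in BM-Treg at 1.26 ± 0.495 FPKM and sixth in SP-Treg at 3.90 ± 1.08 FPKM. Spry2 was lowest at 0.236 FPKM and was listed at 0 in BM-Treg 1 and 2.

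**Figure D1:**
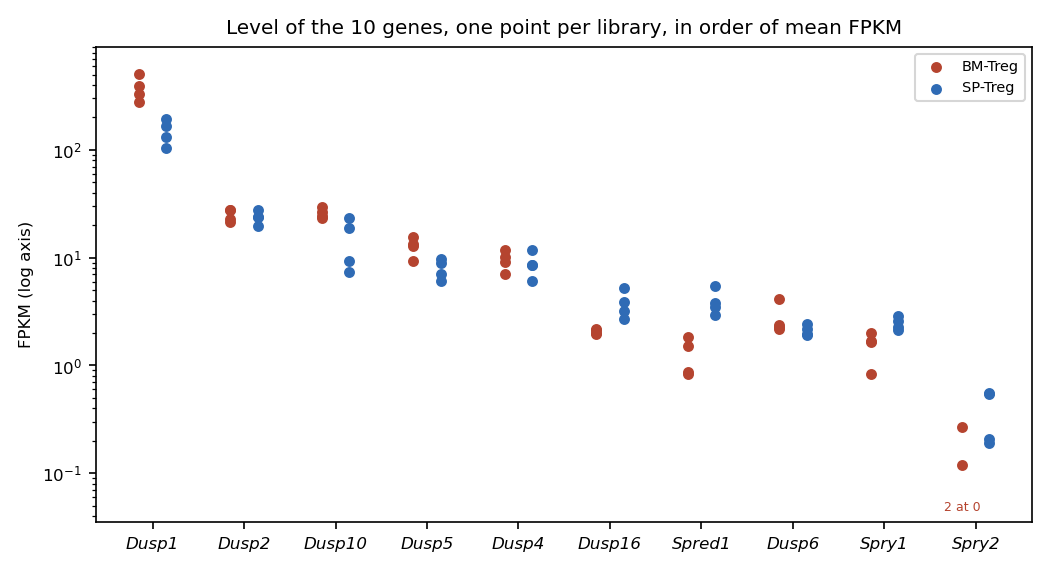
FPKM (log axis) of the 10 genes, ordered by their mean over 8 libraries, with 1 point per library in red for BM-Treg and blue for SP-Treg. Dusp1 stands above all other members in every library, and the 4 genes from Dusp16 to Spry1 lie close together.

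Of the 10 members, 9 had enough counts to be tested between tissues, and Spry2 did not. Dusp1 was upregulated in BM-Treg, while Dusp16 and Spred1 were downregulated. The other 6 tested members did not pass an adjusted p of 0.05. Over all 13397 genes tested, 3.72% were called higher and 5.02% lower in BM-Treg, 499 and 673 of 1172 DEGs. Of these DEGs 42.6% were thus higher, compared with 62.7% when the deposited FPKM values were tested on a log2 scale with a pseudocount of 1. The median log2 fold change was 0.06 over the 9 tested members and -0.01 over all genes tested. All BM-Treg libraries lay above all SP-Treg libraries for 1 member (Dusp1) and below them for 3 (Dusp16, Spry1 and Spred1). The corresponding shares of all genes were 7.6% and 8.56%. Bulk RNA does not tell fewer cells of a type from less RNA per cell.

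**Figure D2:**
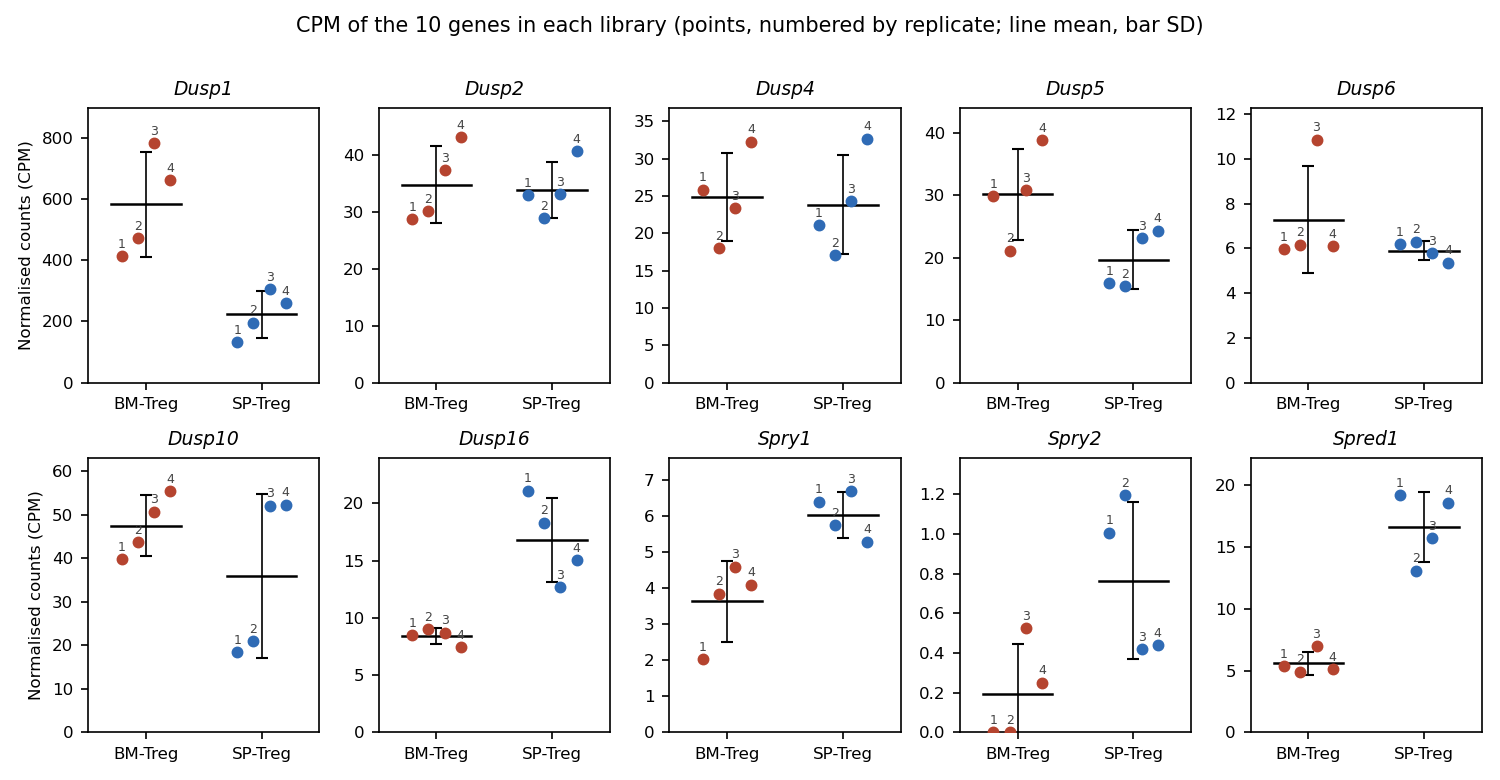
Normalised counts (scaled to library size as CPM) of the 10 genes by tissue, with points numbered by replicate, a line at the mean and a bar of 1 SD. The tissues do not overlap for Dusp1, Dusp16, Spry1 and Spred1.

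Dusp1 (ENSMUSG00000024190, chr17:26505590-26508519) encodes a nuclear phosphatase of p38, JNK and ERK that is rapidly induced by stimulation. Its normalised counts were 412, 472, 783 and 661 CPM in BM-Treg 1 to 4. In SP-Treg 1 to 4 they were 131, 196, 306 and 260 CPM. Every BM-Treg library was therefore above every SP-Treg library. The means were 582 ± 171 and 223 ± 76.2 CPM (SD over 4 libraries per tissue), which gave a log2 fold change of 1.38 (SE 0.29, 95% interval 0.71 to 2.05). The adjusted p was 0.0236 in the edgeR quasi-likelihood fit, adjusted by Benjamini-Hochberg over all genes tested.

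Within batch 3 alone the Dusp1 difference was as large, with a log2 fold change of 1.58 for BM-Treg 4 against the 4 SP-Treg libraries, but its adjusted p was 0.145. With batch as a term the value was 1.57 (adjusted p = 0.125). The call was also lost when BM-Treg 3 (adjusted p = 0.0550), BM-Treg 4 (0.0595), SP-Treg 2 (0.0656) or SP-Treg 4 (0.0578) was left out, and when no filter on low counts was applied (0.0779).

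The gene-level difference in Dusp1 was not shared evenly among its transcripts. The tables hold 3 Dusp1 transcripts, of which 1 is protein coding (ENSMUST00000025025) and the other 2 are typed as retained intron in GENCODE M21. The coding transcript was estimated at 89.4, 91.2, 280 and 238 FPKM in BM-Treg 1 to 4. In SP-Treg 1 to 4 the estimates were 1.0, 6.43, 51.2 and 39.5 FPKM. The tissues did not overlap, with means of 175 ± 99.0 and 24.5 ± 24.6 FPKM. By contrast, the longer retained-intron transcript (ENSMUST00000126178) overlapped between tissues at 72.2 ± 21.4 and 49.96 ± 5.89 FPKM. The shorter one (ENSMUST00000146077) was at 129 ± 19.7 FPKM in BM-Treg and 74.2 ± 10.6 FPKM in SP-Treg without overlap.

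Expressed as a share of the gene's expected counts, both retained-intron transcripts together took 60.1, 64.9, 34.2 and 28.6% of Dusp1 in BM-Treg 1 to 4. They took 98.6, 93.4, 65.4 and 69.9% in SP-Treg 1 to 4. SP-Treg 1 and 2 thus had almost no reads assigned to the coding form, although these libraries held 1826 and 2461 counts of the gene. The means were 46.9% ± 18.2 and 81.8% ± 16.6, a difference of -34.9 percentage points. Among 3497 genes with both kinds of transcript and at least 50 counts in every library, Dusp1 had the third lowest difference. The median over these genes was 0.216 points, so the shift was not general. Dusp2, the only other member in this comparison, moved by -1.86 points. RSEM divides reads among overlapping transcripts by estimation, and these shares were not tested.

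**Figure D3:**
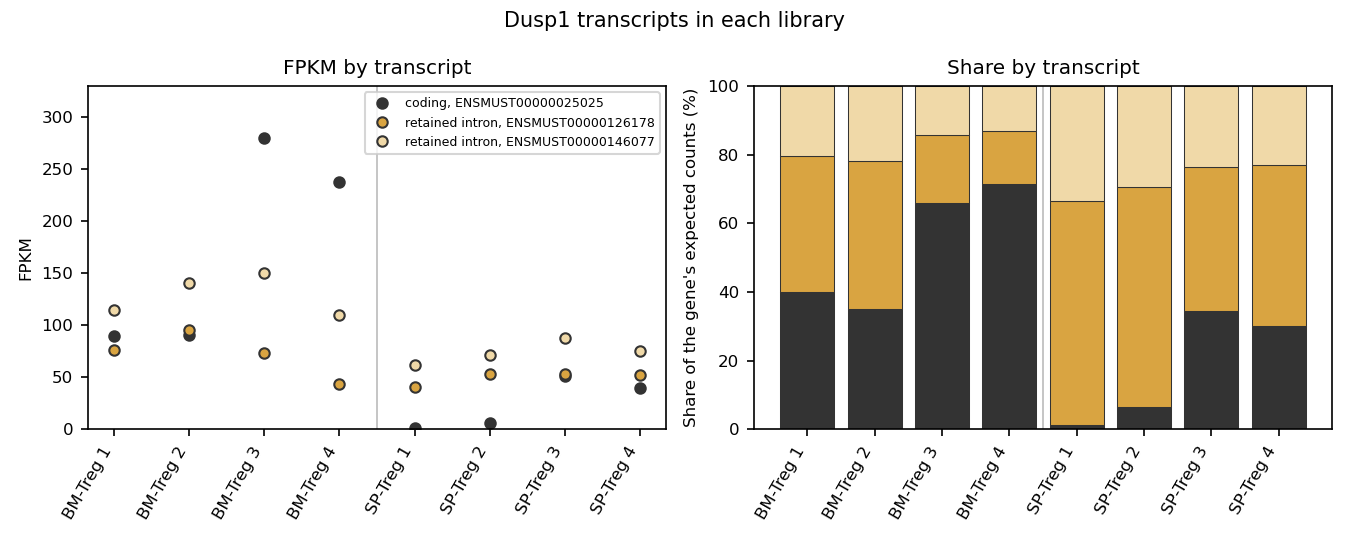
Dusp1 transcripts in each of the 8 libraries as FPKM (left) and as share of the gene's expected counts in percent (right), with the coding transcript in black and the 2 retained-intron transcripts in light colours. The coding transcript is above 89 FPKM in every BM-Treg library and at most 51.2 FPKM in every SP-Treg library.

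The other 3 nuclear inducible phosphatases did not pass the test. Dusp5, which is selective for nuclear ERK, was at 29.8, 21.1, 30.7 and 38.8 CPM in BM-Treg 1 to 4. It was at 15.9, 15.4, 23.1 and 24.3 CPM in SP-Treg 1 to 4. BM-Treg 2 lay among the spleen libraries and the other BM-Treg libraries lay above them. The log2 fold change of Dusp5 was 0.61 (SE 0.20, 95% interval 0.19 to 1.04, adjusted p = 0.0734), and in batch 3 alone it was 0.997 (adjusted p = 0.110). Dusp5 passed with DESeq2 (adjusted p = 0.0305), without a filter on low counts (0.0275), with the replicate number as a block (0.0245) and without BM-Treg 2 (0.0340).

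Dusp2, a nuclear phosphatase of ERK and p38 found mainly in blood cells, was at 28.7, 30.1, 37.4 and 43.2 CPM in the BM-Treg libraries and at 33.0, 28.9, 33.1 and 40.7 CPM in those of SP-Treg. The log2 fold change was 0.04, and its 95% interval ran from -0.28 to 0.35 (0.36 in batch 3 alone). Dusp4, a nuclear phosphatase related to Dusp1, was at 25.8, 17.97, 23.3 and 32.2 CPM in the BM-Treg libraries and at 21.1, 17.0, 24.3 and 32.7 CPM in those of SP-Treg. Its log2 fold change was 0.06 (95% interval -0.39 to 0.50), and 0.46 in batch 3 alone. For both genes the tissues overlapped, and replicate 4 was the highest library of each tissue.

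Dusp6 encodes the cytoplasmic ERK phosphatase. Its counts were 5.97, 6.16, 10.9 and 6.10 CPM in BM-Treg 1 to 4 and 6.18, 6.29, 5.77 and 5.36 CPM in SP-Treg 1 to 4. A single library, BM-Treg 3, stood apart from the other 7. The log2 fold change was 0.31 (SE 0.23, 95% interval -0.19 to 0.81, adjusted p = 0.470), and in batch 3, where BM-Treg 3 is not included, it was 0.06.

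The JNK and p38 phosphatases showed contrasting patterns. Dusp16 (ENSMUSG00000030203, chr6:134715473-134792625) was at 8.48, 9.03, 8.71 and 7.43 CPM in BM-Treg 1 to 4. In SP-Treg 1 to 4 it was at 21.1, 18.3, 12.7 and 15.0 CPM. BM-Treg libraries were closely grouped and all lay below the spleen libraries. The means were 8.41 ± 0.692 and 16.8 ± 3.69 CPM, a log2 fold change of -0.99 (SE 0.18, 95% interval -1.38 to -0.61, adjusted p = 0.00345). The call held with each of the 8 libraries left out (adjusted p 0.00266 to 0.0143). It was lost with batch as a term (log2 fold change -1.18, adjusted p = 0.0666), in batch 3 alone (-1.16, 0.133) and on FPKM with a pseudocount of 1 (0.0671) or 0.1 (0.0727).

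Most Dusp16 counts were assigned to ENSMUST00000100857, at 70.9% ± 14.0 in BM-Treg and 76.2% ± 4.55 in SP-Treg. Its share in BM-Treg 4 was 50.4%, below all other libraries, while the gene-level value of BM-Treg 4 was close to those of the other BM-Treg.

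Dusp10 differed more among SP-Treg than between tissues. It was at 39.8, 43.7, 50.7 and 55.5 CPM in BM-Treg 1 to 4 and at 18.5, 20.9, 52.1 and 52.3 CPM in SP-Treg 1 to 4. SP-Treg 1 and 2 lay below every BM-Treg library, whereas SP-Treg 3 and 4 lay among them. The highest SP-Treg value was 2.83 times the lowest, against a median of 1.47 over all genes tested. The log2 fold change was 0.40 with a 95% interval of -0.44 to 1.24 (adjusted p = 0.569), and it was 0.64 in batch 3 alone.

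Dusp10 has 2 coding transcripts with separate first exons. The form that starts upstream (ENSMUST00000139839, chr1:184013302-184037274) took 17.1, 14.0, 16.3 and 11.0% of the gene's expected counts in BM-Treg 1 to 4. It took 0, 8.67, 10.2 and 0.72% in SP-Treg 1 to 4. The upstream form was therefore a larger share in every BM-Treg library than in any SP-Treg library, by a narrow margin between BM-Treg 4 and SP-Treg 3. Transcript shares of Dusp10 were not tested.

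Among the membrane-proximal inhibitors, Spred1 (ENSMUSG00000027351, chr2:117121374-117182279) showed the largest difference of the 9 tested members. It was at 5.36, 4.91, 6.96 and 5.10 CPM in BM-Treg 1 to 4. In SP-Treg 1 to 4 it was at 19.2, 13.1, 15.7 and 18.6 CPM. The highest BM-Treg library was well under the lowest SP-Treg library. The means were 5.58 ± 0.937 and 16.6 ± 2.82 CPM, a log2 fold change of -1.57 (SE 0.19, 95% interval -1.97 to -1.17, adjusted p = 0.000361).

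Spred1 was the only member called under all 18 alternative fits. With batch as a term its log2 fold change was -1.71 (adjusted p = 0.0265), where 1.1% of all genes tested were called lower. In batch 3 alone it was -1.69 (adjusted p = 0.0478). Leaving out each library gave adjusted p-values from 0.000467 to 0.00227. Of 2 coding transcripts of Spred1, ENSMUST00000028829 held 91.1% ± 13.6 of the counts in BM-Treg and 87.6% ± 5.65 in SP-Treg.

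Spry1, which inhibits receptor signalling to RAS, was at 2.03, 3.84, 4.60 and 4.09 CPM in BM-Treg 1 to 4 and 6.39, 5.74, 6.69 and 5.28 CPM in SP-Treg 1 to 4. The tissues did not overlap, but the difference did not pass (log2 fold change -0.73, SE 0.27, 95% interval -1.30 to -0.15, adjusted p = 0.113). It passed under none of the 18 alternatives, and in batch 3 alone it was -0.54. Spry2, a related inhibitor, had 0, 0, 12 and 3 counts in BM-Treg 1 to 4 and 14, 15, 5 and 6 counts in SP-Treg 1 to 4. At this depth a difference in Spry2 was not detectable, and its libraries overlapped between tissues.

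**Figure D4:**
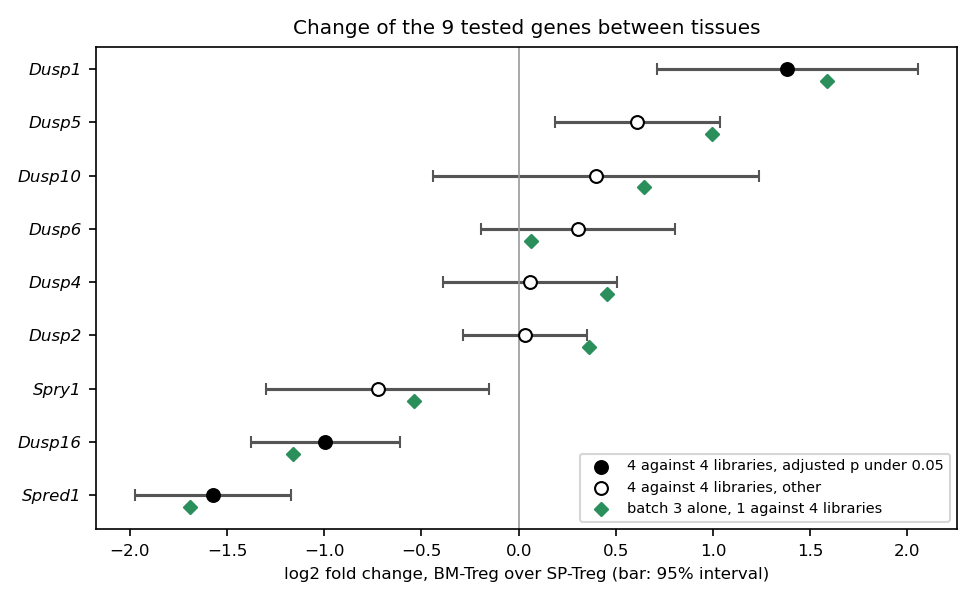
Log2 fold change of the 9 tested members, BM-Treg over SP-Treg, with 95% intervals (circles, filled where the adjusted p was under 0.05) and the value within batch 3 alone (green diamonds). The batch 3 value has the same sign as the value from all 8 libraries for every member.

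The spleen libraries shared an order across several members. SP-Treg 3 and 4 both lay above SP-Treg 1 and 2 for 5 of the 9 tested members (Dusp1, Dusp2, Dusp4, Dusp5 and Dusp10) and below them for 2 (Dusp6 and Dusp16). Among all genes tested, 22.9% showed the first order and 22.3% the second. The split was noticed in these data and is given as a description. In bone marrow, BM-Treg 4 was the highest library for Dusp2, Dusp4, Dusp5 and Dusp10, while BM-Treg 3 was the highest for Dusp1, Dusp6, Spry1, Spry2 and Spred1.

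Of 22 other DUSP and Sprouty/SPRED genes, 12 were tested and 1 passed, while 8.75% of all genes tested passed in either direction. The gene called was Dusp7, a cytoplasmic ERK phosphatase closely related to Dusp6, at 60.8 ± 4.00 CPM in marrow and 35.4 ± 3.87 CPM in spleen (log2 fold change 0.78, SE 0.11, adjusted p = 0.00114). The call held with batch as a term (adjusted p = 0.0209) but not in batch 3 alone, where the log2 fold change was 0.92 (adjusted p = 0.0602). Dusp11, an RNA phosphatase and the most abundant gene of this list, was at 231 ± 27.1 and 246 ± 7.26 CPM (adjusted p = 0.633).

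In the RAS-ERK cascade, 26 of 27 listed genes were tested, and genes passed in both directions. Nf1, the neurofibromin gene whose product SPRED1 recruits, fell together with Spred1, at 25.2 ± 3.74 CPM in marrow and 45.5 ± 3.45 CPM in spleen (log2 fold change -0.85, adjusted p = 0.00124). Its batch 3 value was -0.89 (adjusted p = 0.0759), and with batch as a term its adjusted p was 0.0505. Pebp1, which encodes the RAF kinase inhibitor protein, was also lower (log2 fold change -0.65, adjusted p = 0.0250). Rps6ka1, which encodes an ERK-activated ribosomal S6 kinase, was higher (0.71, adjusted p = 0.000967). Both calls were lost with batch as a term (adjusted p = 0.446 for Pebp1 and 0.0634 for Rps6ka1), and in batch 3 alone the values were -0.37 and 0.59. Pebp1 was called in 4 of 8 fits with 1 library left out. The median log2 fold change of the list was 0.02. Ptpn7, a tyrosine phosphatase of ERK and p38, had a log2 fold change of -0.04, and Rasgrp1, the main RAS activator of T cells, of 0.41 (adjusted p = 0.0791).

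Of 25 genes of the p38 and JNK cascades, 24 were tested and 1 passed, while 8.75% of all genes tested passed in either direction. The gene called was the kinase gene Map3k11 (log2 fold change 0.44, adjusted p = 0.0270). The call was lost with batch as a term (adjusted p = 0.435) and in batch 3 alone (0.28, adjusted p = 0.528), and it held in 3 of 8 fits with 1 library left out. The median of this list was -0.01. The most abundant genes were Tab2, an adaptor of the kinase TAK1 (0.13, adjusted p = 0.470), and Map3k1 (-0.04, adjusted p = 0.856). The kinases that Dusp16 and Dusp10 act on thus included no gene that passed.

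Other transcripts that respond to ERK moved in both directions. Of 18 listed, 15 were tested, 2 were called higher and 5 lower, beside 3.72% and 5.02% of all genes tested. Fosb (log2 fold change 2.54, adjusted p = 0.0452) and Junb (1.31, adjusted p = 0.0216), both AP-1 subunits, were higher together with Dusp1. Egr1 (-1.02, adjusted p = 0.00343), Egr2 (-2.41, 0.00131) and Egr3 (-0.86, 0.0314), zinc finger factors induced by T cell receptor signals, were lower. Etv5 (-0.63, 0.0413) and Myc (-1.04, 0.0413) were also lower, but their FPKM values overlapped between tissues. Mean FPKM in marrow and spleen was 3.3 ± 0.91 and 3.6 ± 0.88 for Etv5, and 29.0 ± 4.25 and 52.9 ± 21.8 for Myc. With batch as a term Egr2 was still called (adjusted p = 0.0392), whereas Fosb (0.105), Junb (0.168), Egr1 (0.172), Egr3 (0.0581), Etv5 (0.219) and Myc (0.284) were not. In batch 3 alone the log2 fold changes were 3.15 for Fosb, 1.34 for Junb, -0.58 for Egr1, -2.82 for Egr2, -1.44 for Egr3, -0.70 for Etv5 and -1.08 for Myc. With 1 library left out, Egr1 and Egr2 were called in 8 of 8 fits, Junb in 6, Fosb, Egr3 and Myc in 2 and Etv5 in 1. Fos had a log2 fold change of 1.43 (adjusted p = 0.0712), and the most abundant gene of the list, the survival factor Mcl1, of -0.14. SP-Treg 1 and 2 were both below SP-Treg 3 and 4, the order seen for Dusp1, for 6 of the 15 tested genes (Fos, Fosb, Junb and Myc among them). SP-Treg 1 and 2 were both above SP-Treg 3 and 4 for 5 (Egr2, Egr3 and Mcl1 among them). Over all genes tested the shares were 22.9% and 22.3%, and the list thus held both orders in nearly equal number.

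**Figure D5:**
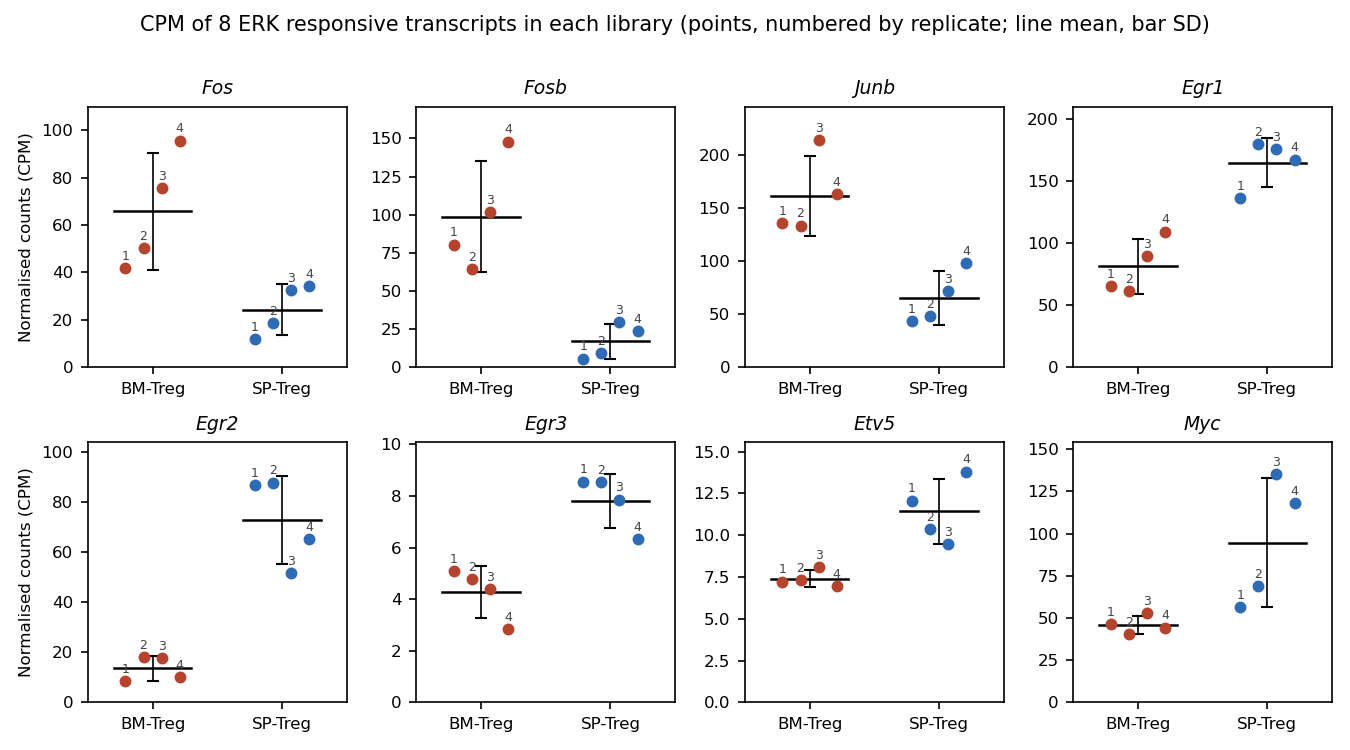
Normalised counts (CPM) of 8 ERK responsive transcripts by tissue, with points numbered by replicate, a line at the mean and a bar of 1 SD. Fos, Fosb and Junb are higher in every BM-Treg library than in any SP-Treg library, and Egr1, Egr2, Egr3, Etv5 and Myc are lower.

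Dusp1 belongs to the immediate early class, whose levels can also move during cell isolation. Of 16 immediate early and heat shock transcripts, 14 were tested. Of these, 3 were called higher (Fosb, Junb and Jund, the last with a log2 fold change of 0.63) and 2 lower (Egr1 and Hspa8, -0.85). The shares of all genes tested were 3.72% higher and 5.02% lower. The summed level of the list was 2661 to 4338 CPM in marrow and 3879 to 4371 CPM in spleen libraries, so the ranges overlapped. The largest parts of the sum went in opposite directions. Hspa8 was at 1520 ± 262 CPM in marrow and 2737 ± 430 CPM in spleen, and Zfp36 at 1034 ± 338 and 653 ± 167 CPM. The overlap of the sums therefore does not describe the immediate early genes alone. With batch as a term none of the 5 calls held in the edgeR fit (adjusted p 0.0709 for Jund and 0.195 for Hspa8, the others as above). Zfp36, an RNA-binding protein gene and the most abundant of the list after the chaperone gene Hspa8, had a log2 fold change of 0.66 (adjusted p = 0.141). The part of cell isolation in the Dusp1 difference was not tested.

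Treg markers (Foxp3, Il2ra, Ctla4, Ikzf2, Cd3e and Cd4) were at a summed 7209 to 8562 CPM in marrow and 7911 to 8730 CPM in spleen libraries. Markers of other cells were low, and of those tested only Cd8a passed between tissues. Its means were 1.09 CPM in marrow and 8.86 CPM in spleen (log2 fold change -2.99, edgeR adjusted p = 0.0293). Summed B cell markers were 10.7 to 13.7 CPM in marrow and 6.32 to 88.3 CPM in spleen, erythroid 4.76 to 9.49 and 1.15 to 129 CPM, neutrophil 1.27 to 9.44 and 0.144 to 15.2 CPM, and CD8 T cell 10.9 to 12.6 and 13.2 to 41.0 CPM. Macrophage and monocyte markers reached 18.7 and 27.2 CPM, pDC markers 11.9 and 15.2 CPM and the plasma cell marker matched, Sdc1, 0.0926 and 0.587 CPM. SP-Treg 2 had the highest B cell, CD8 T cell and neutrophil sums, and without it Dusp16 and Spred1 were called and Dusp1 was not (adjusted p = 0.0656). The part of these cells in the members' values was not tested.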

How the data were processed

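Per the labels and methods, 15 ng of RNA from sorted cells was amplified for each library, and reads of 80 nt were sequenced. The submitters' processing notes name cutadapt 1.9, STAR 2.5.2a, RSEM 1.2.30 and GRCm38. The authors deposited RSEM expected counts and FPKM per gene and per transcript. Expected counts, 12427136 to 21921252 per library, were rounded and tested with edgeR 4.0.16 in R 4.3.3 (robust quasi-likelihood test, TMM, filterByExpr, Benjamini-Hochberg adjustment over 13397 genes, threshold 0.05). CPM values are TMM-normalised, and the deposited FPKM values served for levels between genes. DESeq2 1.42.0 and limma 3.58.1 were used for alternatives. Tested on simulated data for this comparison (13397 genes), the edgeR step called 60% of 100 genes changed 2-fold and 92% of 100 changed 4-fold. It made 12 false calls.

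Named genes were all members and, of each list, the called genes and the 2 most abundant measured genes. Fos, named beyond that rule, was chosen after its values were seen. Members and lists were chosen with earlier results of these data known. Map3k4 has a second identifier on the opposite strand, which was left out after the data were seen. Retained-intron shares, the order of spleen libraries and promoter motifs were also added after the data were seen. Deviations of libraries with the same replicate number correlated at -0.176 to 0.0595. These values show no pairing by number, but with 4 libraries per tissue they cannot exclude it. Spry2, with a mean of 6.88 counts per library, did not pass the filter. A result of the RAS-ERK list is not reported here.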

Additional observations from a re-analysis of the deposited data

Results flagged for a closer look

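Among the 20 groups of 4 libraries examined (10 members in 2 tissues), 1 held a library far from the others. For Dusp6, the cytoplasmic ERK phosphatase, BM-Treg 3 was high at 10.9 CPM while the other BM-Treg libraries were at 5.97 to 6.16 CPM, and its gap to the nearest library was 0.947 of the whole range on the log2 scale. Chance flags about 1 in 20 such groups. BM-Treg 3 was also the highest BM-Treg library for Dusp1, Spry1, Spry2 and Spred1, without standing apart in the same way. It had the largest total, 21921252 expected counts.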

How the results depend on the processing

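Every member kept its direction where the value passed the test, and no called value reversed. The main analysis called 1172 genes, and the totals were 727 and 701 on FPKM with pseudocounts of 1 and 0.1, 258 with batch as a term, 98 in batch 3 alone, 427 at an adjusted p of 0.01, 310 with a minimum log2 change of 1 in either direction, and 690 (without BM-Treg 2) to 1048 with 1 library left out. DESeq2 called 1703 genes and limma-voom 1210. Members called higher, 1 in the main analysis, were 2 with DESeq2 (Dusp1 and Dusp5), 0 with batch as a term, in batch 3 alone and at an adjusted p of 0.01, and 0 to 2 with 1 library left out. Members called lower, 2 in the main analysis, were 1 on either FPKM scale, with batch as a term, in batch 3 alone and with the fold change minimum, and 2 to 2 with 1 library left out. With the replicate block, 948 genes and 2 members higher and 2 lower were called, Dusp5 being the added call; 3 of 8 libraries correlated best with the library of their own number. The cause of the lost calls under the batch term was not tested. In batch 3 alone the lone BM-Treg library was taken to vary like the SP-Treg libraries, and fewer samples entered the fit. Depth limits Spry2, which was tested only without a filter on low counts (adjusted p = 0.256).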
